A study of Mus musculus with 6 samples.

Results

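A set of 36 genes that mark blood and lymphatic endothelium or encode angiogenic ligands and receptors was followed in the uterus of mice on gestation day 5. The genes were chosen as a list, by symbol, with earlier results of these data known. All 36 were found among the 37060 genes of the deposited table. Bulk RNA sequencing of whole uterus had been done in 3 SRC-2d/d mice (mutants 1 to 3) and 3 SRC-2f/f mice (controls 1 to 3), all on gestation day 5. SRC-2, encoded by Ncoa2, is a coactivator of steroid receptors, and the study asked which genes depend on it at the time of embryo implantation. In the labels f/f names the control genotype and d/d the mutant one. No source used here gives the Cre driver behind the d/d genotype, the deleted part of Ncoa2, the strain or the age of the mice. Each library came from a different mouse, and no batch, litter or day of collection is labelled.

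Blood vessels grow and become leaky in the pregnant uterus as the embryo attaches, and the stroma that turns into decidua is densely vascularized. Vascular endothelial growth factors (VEGFs) signal through the receptors encoded by Kdr, Flt1 and Flt4, with neuropilins as co-receptors. The angiopoietins act on the receptor encoded by Tek, and apelin acts on the receptor encoded by Aplnr. Pecam1 and Cdh5 encode adhesion molecules that hold endothelial cells together and serve as general markers of them.

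The deposited values were read counts per gene divided by a size factor of the library, and they are called normalized counts here. Gene length does not enter these values, and levels of different genes are therefore ranked only after division by exon length. Ratios of one gene to another within a library are given without that division. They serve to compare mice and do not say which gene was more abundant. Markers of uterine stroma, epithelium and smooth muscle were all detected, the least abundant gene of each list averaging 16871, 9475 and 777 normalized counts. The libraries held 129905950 to 195782326 assigned reads each. Ncoa2 had 7620, 6667 and 7409 normalized counts in mutants 1 to 3, against 13208, 13090 and 14495 in controls 1 to 3 (log2 difference -0.91, SE 0.20, adjusted p = 0.00953 by limma). The mutants were at 53.2% of the control level, and the exact two-sided permutation p was 0.1, below which a design of 3 against 3 cannot go. The limma call of Ncoa2 was lost without control 2 (adjusted p = 0.0583) and without control 3 (adjusted p = 0.0585). On the first principal component across genes, which held 70.7% of the variance, mutant 2 lay at 28.9 and mutants 1 and 3 at 84.2 and 97.0. The controls lay between -85.9 and -49.3. Mutant 2 thus stood nearest to the controls, and differences are also given without it. That mouse was picked by these same values, so larger differences and added calls without it are no separate support. Without it 7.84% of all genes were called lower by limma, against 4.08% with all mice.

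Of the endothelial and angiogenic genes 21 were lower in the SRC-2d/d uterus, 14 were not called and 1 was higher. Of the 36 genes 35 had a negative log2 difference between mutants and controls, and the gene that was higher was the transcription factor gene Sox7. The test was limma on log2(normalized count + 1), with Benjamini-Hochberg adjustment over the 36154 genes tested and a threshold of 0.05, and it called 4.08% of all those genes lower and 5.34% higher. The median log2 difference was -0.95 over the 36 genes and -0.01 over all genes tested. The groups did not overlap for 24 of the 36 genes, 23 with every mutant below every control and 1 with every mutant above. Of all genes tested, 12.1% lay entirely below and 13.4% entirely above in this sense. The largest falls were those of Pgf and Apln, to 9.25% and 10.8% of the control level, and the rise of Sox7 was 3.96-fold.

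**Figure D1:**
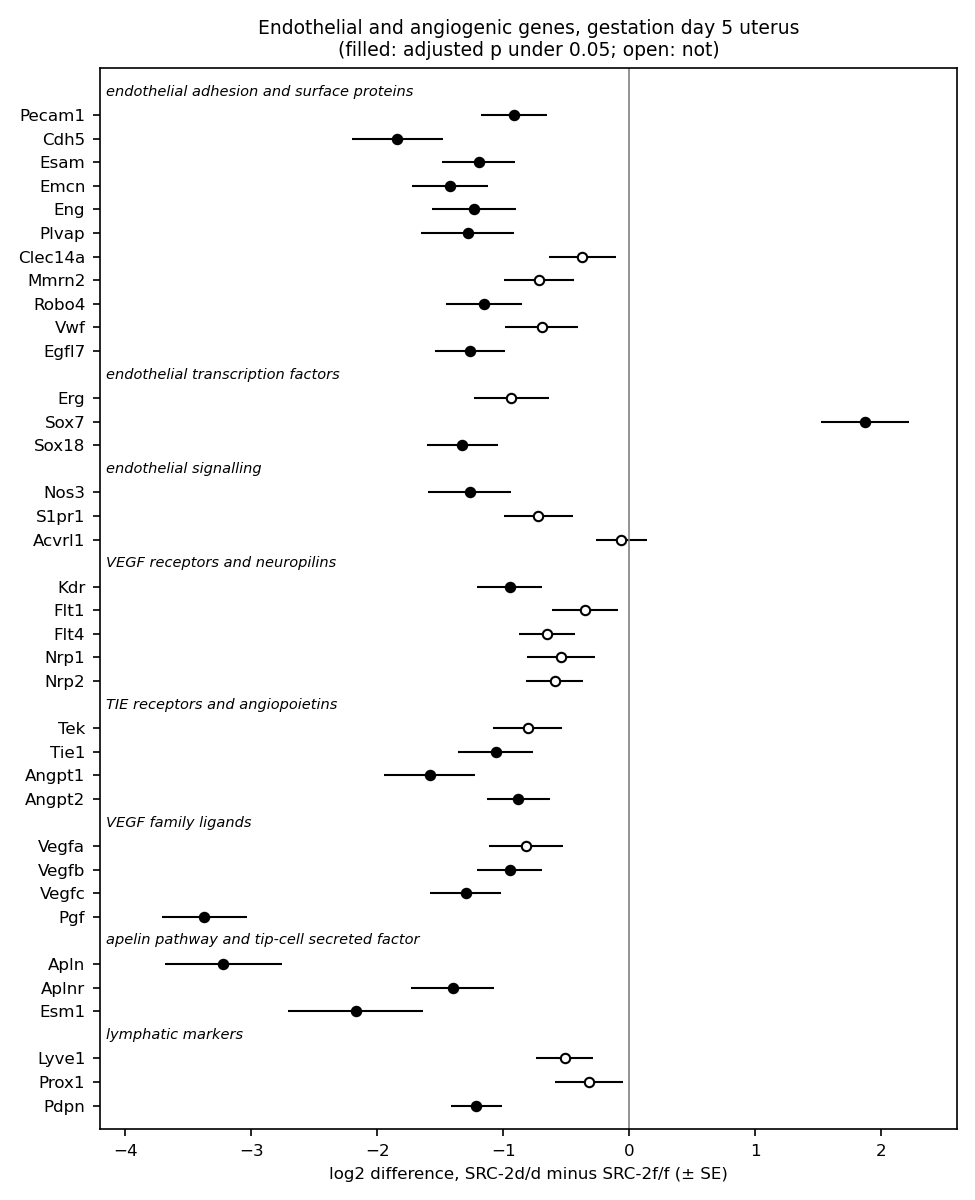
Log2 difference (SRC-2d/d minus SRC-2f/f) with its standard error for each of the 36 genes, ordered by role, with filled points for genes with an adjusted p under 0.05. Sox7 is the one point to the right of 0, at 1.87, and Pgf and Apln lie farthest to the left, at -3.37 and -3.22.

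The number of calls depended on single mice. Without mutant 2, 29 genes were called lower, against 7.84% of all genes tested without that mouse. Without control 1, 2 or 3 the number was 10, 5 and 3, against 2.55%, 1.26% and 0.879% of all genes. Without mutant 1 or 3 it was 10 and 9, against 2.29% and 2.13% of all genes. The lower calls that held without each of the 6 libraries in turn were those of Pgf, Apln and Pdpn, and the higher call of Sox7 held likewise. Of all genes 4.11%, 3.06% and 2.83% were called higher without controls 1 to 3, and 3.9%, 7.24% and 3.8% without mutants 1 to 3. With edgeR's quasi-likelihood test on the recovered whole reads, 19 of the 36 genes were called lower and Sox7 higher, against 3.58% and 5.52% of all genes, with Eng and Plvap lost. DESeq2 called 21 lower and 1 higher, against 5.87% and 8.12% of all genes. edgeR without controls 1 to 3 called 12, 10 and 5 of the 36 lower, against 2.84%, 1.87% and 1.36% of all genes, and without mutants 1 to 3 it called 10, 30 and 10, against 2.2%, 8.73% and 2.42%. When the variances were moderated without a trend on expression level, only Pgf was called, against 0.871% of all genes called lower and 1.89% higher.

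The mutants differed among themselves in a regular way. Mutant 2 had the highest value of the 3 mutants for 32 of the 36 genes, and control 3 the highest of the 3 controls for 28. The median log2 level over the 36 genes, relative to the mean of the controls, was -1.18, -0.39 and -1.39 in mutants 1 to 3. In controls 1 to 3 it was -0.13, -0.14 and 0.28. Mutant 2 lay within the range of the controls for 11 genes, and mutants 1 and 3 for 3 each.

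**Figure D2:**
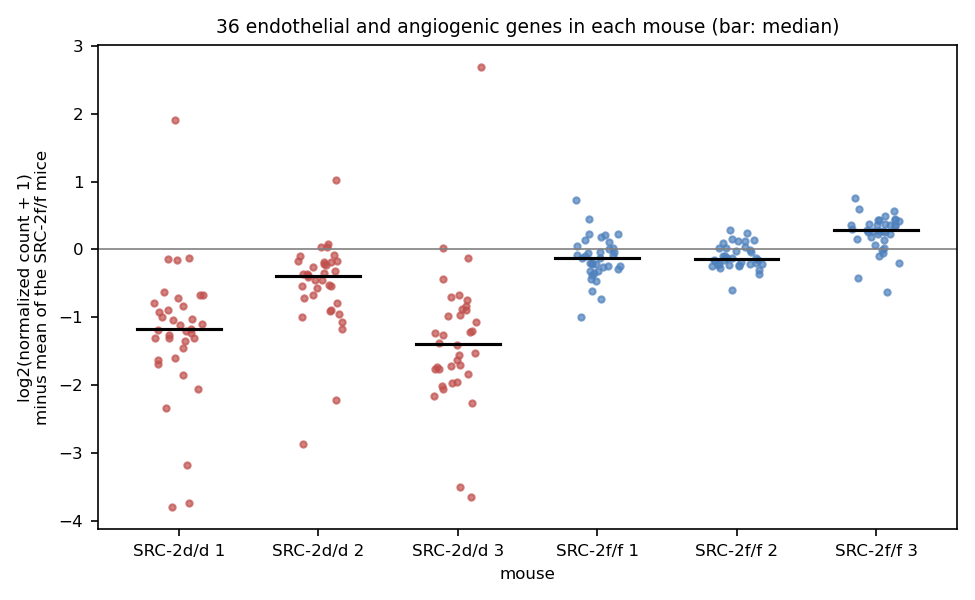
Each point is 1 of the 36 genes in 1 mouse, as log2(normalized count + 1) minus the mean of the SRC-2f/f mice, and the bars are medians. Mutant 2 has a median of -0.39, between the other mutants at -1.18 and -1.39 and the controls at -0.14 to 0.28, and the points far above 0 in the mutants are Sox7.

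Among the VEGF-family ligands, Pgf, Vegfc and Vegfb were lower in mutants and Vegfa did not pass the test. Pgf encodes placental growth factor, a ligand of the FLT1 receptor. It had 415, 765 and 489.6 normalized counts in mutants 1 to 3, against 9249, 5185 and 3610 in controls 1 to 3. The lowest control was several times higher than the highest mutant, and control 1 was the highest of the controls, where control 3 was for most of the 36 genes. Pgf fell to 9.25% of the control level (log2 difference -3.37, SE 0.34, adjusted p = 2.35e-05 by limma), the log2 difference being -3.69 to -3.01 and the adjusted p 2.04e-06 to 0.00110 without single libraries. It was the gene of the set with the smallest adjusted p.

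Vegfc, the ligand of FLT4 that drives lymphatic growth, had 608, 777 and 489 normalized counts in mutants 1 to 3, against 1273, 1387 and 1950 in controls 1 to 3. It fell to 40.6% of the control level (log2 difference -1.30, SE 0.28, adjusted p = 0.00968). Vegfb, a ligand of FLT1, averaged 2508 ± 832 in mutants and 4703 ± 643 in controls (SD, n = 3 each; log2 difference -0.95, SE 0.26, adjusted p = 0.0333). Neither gene overlapped between the groups. Without mutant 2 the log2 difference was -1.47 for Vegfc and -1.20 for Vegfb. Without control 2 or 3, neither was called (Vegfc -1.36, adjusted p = 0.0546 and -1.11, adjusted p = 0.0901; Vegfb -0.93, adjusted p = 0.154 and -0.86, adjusted p = 0.183). The call of Vegfb was also lost without control 1 (-1.06, adjusted p = 0.0666), mutant 1 (-0.91, adjusted p = 0.0936) and mutant 3 (-0.74, adjusted p = 0.113).

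Vegfa encodes the main ligand of the KDR receptor. It had 11580, 6906 and 4855 normalized counts in mutants 1 to 3, against 10047, 13678 and 15432 in controls 1 to 3. Mutant 1 lay within the control range and mutants 2 and 3 below it, which is not the order of the mutants seen for most of the 36 genes. The difference of -0.82 (SE 0.29, adjusted p = 0.103) was not called with all mice and was called without mutant 1 (-1.15, adjusted p = 0.0221), with 0.0221 to 0.368 over all alternatives. Without mutant 2 it was -0.78. The ratio of Vegfa to Pgf within a library was 27.9, 9.03 and 9.92 in mutants 1 to 3, against 1.09, 2.64 and 4.27 in controls 1 to 3 (exact two-sided permutation p = 0.1, adjusted p = 0.125 over 5 such ratios). Every mutant had a higher ratio than every control.

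Apelin was the other ligand with a large fall. Apln had 174, 522 and 194 normalized counts in mutants 1 to 3, against 1218, 2881 and 4110 in controls 1 to 3. The groups were clearly apart, with mutant 2 highest among the mutants and a wide spread among the controls. Apln stood at 10.8% of the control mean (log2 difference -3.22, SE 0.46, adjusted p = 5.09e-04 by limma), or at 6.71% when mutant 2 was left out. Its call held without each library, with log2 differences of -3.72 to -2.84 and adjusted p of 1.15e-05 to 0.0186.

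Aplnr, which encodes the apelin receptor of endothelial cells, had 5655, 12635 and 4685 normalized counts in mutants 1 to 3, against 14715, 16852 and 24864 in controls 1 to 3 (log2 difference -1.40, SE 0.33, adjusted p = 0.0153 by limma). Receptor and ligand were both lower, and without mutant 2 the log2 difference of Aplnr was -1.83. Esm1, a proteoglycan secreted by the tip cells that lead a growing vessel, had 26.1, 108 and 53.8 in the mutants and 159, 297 and 309.6 in the controls (log2 difference -2.17, SE 0.54, adjusted p = 0.0206). It was the least abundant of the 36 genes, with at least 23 reads in every library, and stood at 24.6% of the control mean, or at 15.6% when mutant 2 was left out. Both calls were lost without control 2 (Aplnr -1.46, adjusted p = 0.0614; Esm1 -2.03, adjusted p = 0.129) and without control 3 (Aplnr -1.18, adjusted p = 0.145; Esm1 -2.00, adjusted p = 0.146). They were lost as well without mutant 1 (Aplnr -1.25, adjusted p = 0.0626; Esm1 -1.67, adjusted p = 0.0664) and without mutant 3 (Aplnr -1.12, adjusted p = 0.0737; Esm1 -2.17, adjusted p = 0.0503).

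**Figure D3:**
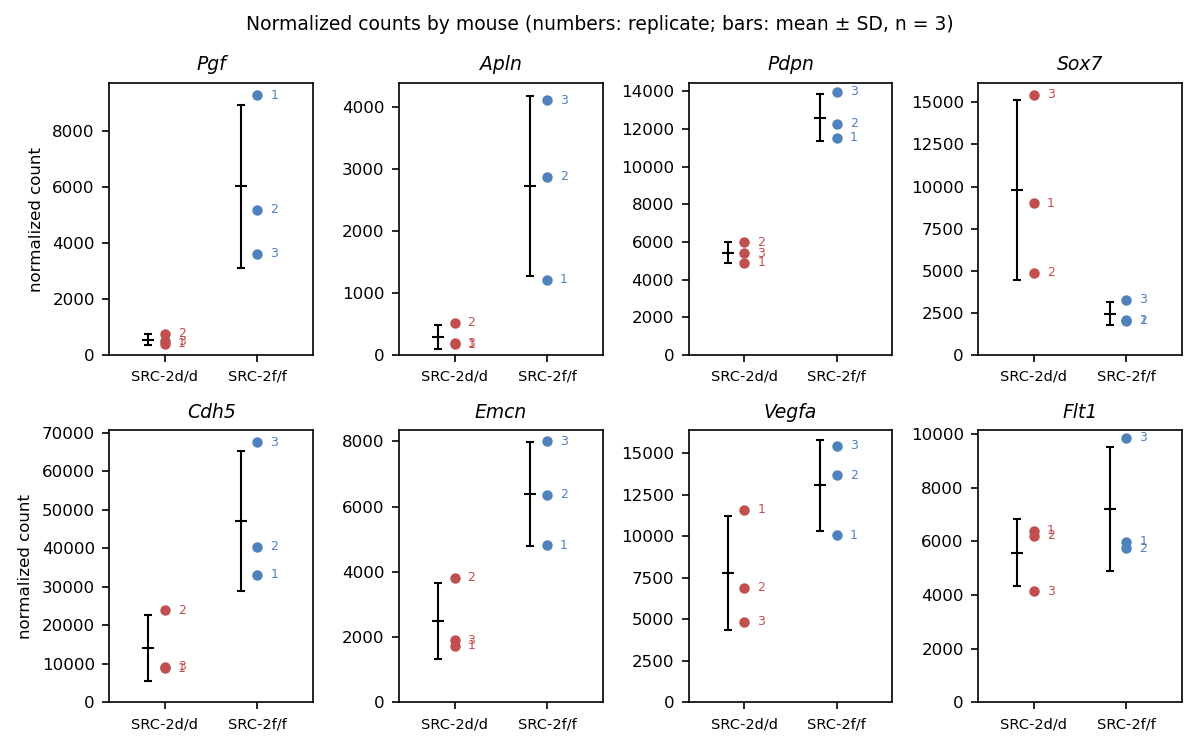
Normalized counts of 8 genes in each mouse, SRC-2d/d left and SRC-2f/f right, with the mean and SD of 3 mice beside the points and the replicate number at each point. Pgf, Apln, Pdpn, Sox7, Cdh5 and Emcn do not overlap between the groups, and Vegfa and Flt1 do.

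The promoters of the 2 genes with the largest falls, and of 3 endothelial genes that fell with them, are shown because endothelial promoters are often bound by ETS factors such as ERG. The sequences are from RefSeq, build GRCm38.p6, which need not be the build of the deposited table, and run from 250 bases before to 50 bases after the annotated start. The first start listed was taken for each gene. Capitals mark AGGAAG, a core sequence that ETS factors can bind, on either strand (CTTCCT on the other). Pgf, chr12:85177264-85177563, minus strand:
Pgf: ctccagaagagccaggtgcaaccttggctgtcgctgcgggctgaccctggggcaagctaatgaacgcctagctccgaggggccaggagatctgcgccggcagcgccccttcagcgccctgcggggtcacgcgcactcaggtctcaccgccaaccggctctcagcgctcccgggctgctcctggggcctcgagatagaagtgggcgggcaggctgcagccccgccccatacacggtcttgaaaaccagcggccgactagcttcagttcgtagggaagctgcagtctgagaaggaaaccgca
Apln, chrX:48034804-48035103, minus strand:
Apln: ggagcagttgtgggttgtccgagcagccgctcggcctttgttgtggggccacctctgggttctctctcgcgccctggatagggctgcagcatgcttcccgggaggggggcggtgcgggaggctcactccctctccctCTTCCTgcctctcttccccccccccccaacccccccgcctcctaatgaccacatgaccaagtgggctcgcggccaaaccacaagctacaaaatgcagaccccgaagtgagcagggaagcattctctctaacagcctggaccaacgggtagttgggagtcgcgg
Emcn, chr3:137340828-137341127, plus strand:
Emcn: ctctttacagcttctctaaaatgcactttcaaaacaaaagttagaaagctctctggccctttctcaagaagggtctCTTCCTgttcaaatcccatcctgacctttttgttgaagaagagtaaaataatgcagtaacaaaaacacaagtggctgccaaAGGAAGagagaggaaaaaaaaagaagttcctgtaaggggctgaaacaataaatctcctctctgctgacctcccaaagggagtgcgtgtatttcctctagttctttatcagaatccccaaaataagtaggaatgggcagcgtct
Tie1, chr4:118489800-118490099, minus strand:
Tie1: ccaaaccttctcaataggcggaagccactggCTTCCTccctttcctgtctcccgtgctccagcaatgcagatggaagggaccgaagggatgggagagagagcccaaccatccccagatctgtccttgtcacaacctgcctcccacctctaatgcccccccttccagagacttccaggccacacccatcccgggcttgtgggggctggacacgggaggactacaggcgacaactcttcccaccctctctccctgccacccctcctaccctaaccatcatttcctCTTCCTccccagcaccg
Robo4, chr9:37401722-37402021, plus strand:
Robo4: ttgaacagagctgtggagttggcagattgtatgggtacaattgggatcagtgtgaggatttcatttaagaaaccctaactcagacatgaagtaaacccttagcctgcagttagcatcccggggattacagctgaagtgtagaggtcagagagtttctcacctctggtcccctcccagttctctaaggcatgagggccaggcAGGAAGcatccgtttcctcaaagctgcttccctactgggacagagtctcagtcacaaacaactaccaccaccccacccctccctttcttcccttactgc

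Of these, Emcn and Tie1 had 2 matches each, Robo4 and Apln 1 each, and Pgf had 0. The 3 endothelial genes shown are examples that all hold a match. Among genes called lower that are not shown, Eng and Egfl7 had 2 and 3 matches, and Kdr, Esm1, Vegfb, Vegfc and Pdpn had 0. Of the 36 genes 21 were in the promoter table, and 8 of them (38.1%) held the sequence, against 35.1% of 27025 promoters of all genes. The shorter sequence ACGTG, the core bound by hypoxia-inducible factors, was held by 2 of the 21 promoters (Clec14a and Pdpn) and by 19.7% of all. These counts describe letters in a window of 300 bases only.

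Genes of endothelial surface and adhesion proteins were lower in mutants in 8 of 11 cases, against 4.08% of all genes tested. The other 3 (Clec14a, Mmrn2 and Vwf) were not called. The median log2 difference of the 11 genes was -1.20. Cdh5, which encodes VE-cadherin of endothelial junctions, had 8850, 23907 and 9286 normalized counts in mutants 1 to 3, against 33064, 40411 and 67500 in controls 1 to 3. Every mutant lay below every control, mutant 2 well above the other mutants. Cdh5 stood at 29.8% of the control mean (log2 difference -1.84, SE 0.36, adjusted p = 0.00495 by limma), or at 19.3% when mutant 2 was left out. With robust moderation of the variances and all mice, Cdh5 was not called (adjusted p = 0.0529, within 4.52e-05 to 0.135 over all alternatives). In a whole tissue, fewer endothelial cells, less RNA per endothelial cell and a larger share of RNA from other cells cannot be told apart.

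Pecam1, the adhesion molecule CD31, also fell. It had 12624, 22139 and 12494 normalized counts in mutants 1 to 3, against 24887, 25721 and 36789 in controls 1 to 3 (log2 difference -0.92, SE 0.26, adjusted p = 0.0419 by limma). Its groups did not overlap, although mutant 2 lay close to control 1. Pecam1 was not called with a pseudocount of 0.1 or 10 (adjusted p = 0.0611 and 0.0506, within 0.00384 to 0.244 over all alternatives). Without mutant 2 it was at 43.1% of the control mean (-1.19). The ratio of Cdh5 to Pecam1 within a library was 0.701, 1.08 and 0.743 in mutants 1 to 3, against 1.33, 1.57 and 1.83 in controls 1 to 3 (exact two-sided permutation p = 0.1, adjusted p = 0.125 over the 5 ratios). Every mutant had a lower ratio than every control.

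Emcn, a sialomucin of capillary and venous endothelium, had 1743, 3822 and 1906 normalized counts in the mutants and 4821, 6371 and 8008 in the controls (log2 difference -1.42, SE 0.30, adjusted p = 0.00842 by limma). Esam, a junctional adhesion molecule, averaged 5518 ± 2470 in mutants and 11999 ± 2286 in controls (SD, n = 3 each; log2 difference -1.20, SE 0.29, adjusted p = 0.0182). Egfl7, a secreted protein of the vessel wall, averaged 5034 ± 1882 in mutants and 11467 ± 943 in controls (log2 difference -1.26, SE 0.27, adjusted p = 0.00985), and Robo4, a guidance receptor that stabilizes vessels, 2579 ± 1193 in mutants and 5439 ± 1251 in controls (log2 difference -1.15, SE 0.30, adjusted p = 0.0289). None of these 4 genes overlapped between the groups. Without mutant 2 their log2 differences were -1.78 for Emcn, -1.53 for Esam, -1.50 for Egfl7 and -1.50 for Robo4. Egfl7 was the one of them in which the controls lay closest together, between 10698 and 12519.

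Eng, endoglin, a co-receptor for BMP9 and TGF-beta, had 8635, 21417 and 8089 normalized counts in mutants 1 to 3, against 23274, 22856 and 36180 in controls 1 to 3 (log2 difference -1.23, SE 0.33, adjusted p = 0.0325 by limma). Mutant 2 was within reach of the lowest control, and the mutants were at 46.3% of the control level with that mouse and at 30.5% without it. Plvap, which forms the diaphragms of fenestrated endothelium, had 5004, 13041 and 3755 in the mutants and 12259, 14218 and 20263 in the controls (log2 difference -1.28, SE 0.37, adjusted p = 0.0437), so that mutant 2 overlapped with control 1. The mutants were at 46.6% of the control level for Plvap and at 28.1% without mutant 2. The calls of both genes were not shared by edgeR (adjusted p = 0.0510 for Eng and 0.0831 for Plvap, within ranges of 3.04e-04 to 0.244 and 1.89e-04 to 0.273 over all alternatives). Robust moderation also ended both calls (0.0756 for Eng and 0.165 for Plvap), as did a pseudocount of 0.1 (0.0559 and 0.0718). That of Plvap was also lost with a pseudocount of 10 (0.0571), without a filter (0.0541), with a mean of at least 100 (0.0546) and with quantile scaling (0.0513).

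The genes of this group that were not called were also lower on average. Vwf, the clotting factor stored by endothelium, averaged 7648 ± 2490 in mutants and 12497 ± 4072 in controls (adjusted p = 0.163), Mmrn2 4431 ± 1824 in mutants and 7002 ± 1331 in controls (adjusted p = 0.130), and Clec14a, a partner of MMRN2 at the endothelial surface, 5531 ± 1488 in mutants and 7198 ± 1984 in controls (adjusted p = 0.459; SD, n = 3 each, limma). Without mutant 2, Vwf and Mmrn2 were called lower and Clec14a was not (-0.58, adjusted p = 0.193). Of the 8 calls, 3 (Cdh5, Esam and Emcn) were left without control 1, 1 (Cdh5) without control 2 and 0 without control 3. Without mutant 1, and likewise without mutant 3, those of Cdh5, Emcn and Egfl7 were left. Across these fits the log2 differences of the 8 genes ran from -2.06 to -1.02 without control 1, from -1.92 to -1.00 without control 2 and from -1.55 to -0.74 without control 3. They ran from -1.59 to -0.79 without mutant 1, from -2.31 to -1.19 without mutant 2, where all 8 were called, and from -1.62 to -0.78 without mutant 3.

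The 3 endothelial transcription factors went different ways. Sox7 and Sox18 are close relatives of the SOXF family, which acts in vessel formation. Sox18 had 2562, 4433 and 1971 normalized counts in mutants 1 to 3, against 6879, 6070 and 8406 in controls 1 to 3 (log2 difference -1.32, SE 0.28, adjusted p = 0.00883 by limma), without overlap. Its call was lost without control 1 (-1.34, adjusted p = 0.0504) and without control 3 (-1.20, adjusted p = 0.0935), and its log2 difference was -1.65 without mutant 2. Sox7 had 8993, 4897 and 15452 normalized counts in mutants 1 to 3, against 2041, 2082 and 3282 in controls 1 to 3. All 3 mutants were above all 3 controls, mutant 2 least so. Sox7 rose 3.96-fold (log2 difference 1.87, SE 0.35, adjusted p = 0.00359), with log2 differences of 1.46 to 2.29 and adjusted p of 5.30e-05 to 0.0434 without single libraries.

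The ratio of Sox7 to Sox18 within a library was 3.51, 1.10 and 7.84 in mutants 1 to 3, against 0.297, 0.343 and 0.390 in controls 1 to 3 (exact two-sided permutation p = 0.1, adjusted p = 0.125 over the 5 ratios). Per kilobase of exon, Sox7 had 2726, 1484 and 4684 normalized counts in mutants 1 to 3, against 619, 631 and 995 in controls 1 to 3. Sox18 had 1581, 2737 and 1216 in mutants 1 to 3, against 4246, 3747 and 5189 in controls 1 to 3. Per length, Sox7 was thus above Sox18 in mutants 1 and 3 and below it in mutant 2 and in the 3 controls. Sox17, the third gene of that family, was also higher (24766 ± 6781 in mutants and 11657 ± 1284 in controls, log2 difference 1.05, SE 0.24, adjusted p = 0.0132 by limma), a call lost without control 1, 2 or 3 (0.96, 1.11 and 1.09). Sox17 is known to be expressed in uterine epithelium as well as in arteries, and epithelial genes were higher in the same mutants, with a summed level of 403712 to 772632 in mutants and of 126961 to 143865 in controls over 10 such genes. The part of the epithelium in the Sox7 result was not tested. Erg, an ETS factor of endothelial identity, had 2600, 4966 and 1944 in mutants 1 to 3, against 6076, 5121 and 5663 in controls 1 to 3 and did not pass the test (log2 difference -0.94, SE 0.30, adjusted p = 0.0659), but did without mutant 2 (-1.32, adjusted p = 0.00152), with 0.00152 to 0.288 over all alternatives.

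Of 5 VEGF receptors and neuropilins, Kdr alone was called. Kdr encodes VEGFR2, the main signalling receptor for VEGFA, and had 5129, 8924 and 5033 normalized counts in mutants 1 to 3, against 11046, 10415 and 14445 in controls 1 to 3 (log2 difference -0.95, SE 0.25, adjusted p = 0.0310 by limma). It did not overlap between the groups. Flt1 encodes VEGFR1, which binds VEGFA and PGF, also in a soluble form that these gene counts do not separate. It had 6390, 6205 and 4136 in the mutants and 5990, 5742 and 9853 in the controls (log2 difference -0.35, SE 0.26, adjusted p = 0.489). Mutants 1 and 2 lay above controls 1 and 2, and control 3 above all others, and without mutant 2 the log2 difference of Flt1 was -0.44.

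The ratio of Flt1 to Kdr within a library was 1.25, 0.695 and 0.822 in mutants 1 to 3, against 0.542, 0.551 and 0.682 in controls 1 to 3. The groups did not overlap, by a narrow margin (exact two-sided permutation p = 0.1, adjusted p = 0.125 over the 5 ratios). Flt4, the VEGFC receptor of lymphatic endothelium, averaged 5100 ± 970.3 in mutants and 7999 ± 1252 in controls (adjusted p = 0.0873). The neuropilin genes Nrp1 and Nrp2 averaged 8029 ± 2969 and 7432 ± 1597 in mutants and 11397 ± 2367 and 11121 ± 1678 in controls (adjusted p = 0.253 and 0.127; SD, n = 3 each, limma). Without mutant 2 those 3 genes were called lower too, at -0.80, -0.83 and -0.76. Kdr itself lost its call when any other library was left out, at -1.00, -1.04 and -0.81 for controls 1 to 3 and at -0.82 and -0.81 for mutants 1 and 3, and it was at -1.22 without mutant 2.

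Both angiopoietins and the orphan receptor Tie1 were lower. Angpt1, the agonist of the TEK receptor, had 402, 836 and 513 normalized counts in mutants 1 to 3, against 1011, 1857 and 2485 in controls 1 to 3 (log2 difference -1.58, SE 0.36, adjusted p = 0.0125 by limma). Angpt2, its context-dependent antagonist, had 1336, 1633 and 997 in mutants 1 to 3, against 2245, 2623 and 2309 in controls 1 to 3 (log2 difference -0.88, SE 0.25, adjusted p = 0.0396). Neither overlapped between the groups, and without mutant 2 the log2 differences were -1.88 for Angpt1 and -1.05 for Angpt2. The ratio of Angpt2 to Angpt1 did overlap, with 3.32, 1.95 and 1.95 in mutants 1 to 3 and 2.22, 1.41 and 0.929 in controls 1 to 3 (exact two-sided permutation p = 0.3, also after adjustment over the 5 ratios). An antisense gene, Gm17473, shares 14.2% of the exon bases of Angpt1 in GENCODE M21 and had 1.65 to 51.9 normalized counts, and no source used here says whether counting used strand.

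Tek, the angiopoietin receptor, averaged 4646 ± 1806 in mutants and 7826 ± 1539 in controls and was not called (adjusted p = 0.0860 by limma), while Tie1 averaged 7807 ± 3583 in mutants and 15612 ± 4305 in controls (SD, n = 3 each; log2 difference -1.06, SE 0.30, adjusted p = 0.0390). Without mutant 2 both were called (-1.10 and -1.41). With a pseudocount of 0.1, Tie1 was not called (adjusted p = 0.0609, within 0.00143 to 0.251 over all alternatives). Of the 3 calls in this group, that of Angpt1 was left without control 1, mutant 1 or mutant 3, and 0 were left without control 2 or 3. The log2 differences of the 3 genes ran from -1.95 to -0.92, from -1.51 to -0.81 and from -1.30 to -0.84 without controls 1 to 3, and from -1.35 to -0.90 and from -1.53 to -0.69 without mutants 1 and 3.

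Of 3 genes of endothelial signalling, Nos3 was lower. Nos3 encodes the nitric oxide synthase of endothelium and had 1105, 1685 and 599 normalized counts in mutants 1 to 3, against 2499, 2131 and 2911 in controls 1 to 3 (log2 difference -1.26, SE 0.33, adjusted p = 0.0269 by limma). Its groups did not overlap. Nos3 shares 25.2% of its exon bases with the antisense gene Gm15587 (28.9 to 100.5 normalized counts) and 7.12% with Atg9b on the other strand (608 to 3837), so that reads of these genes could not be separated with certainty. Leaving out control 1, 2 or 3 (-1.26, -1.38 and -1.15) or mutant 1 or 3 (-1.31 and -0.87) ended the call, and without mutant 2 it held at -1.61. S1pr1, a receptor for sphingosine-1-phosphate that steadies vessels, averaged 4024 ± 1641 in mutants and 6372 ± 1117 in controls (adjusted p = 0.122) and was called without mutant 2 (-1.04).

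Acvrl1, which encodes ALK1, the endothelial receptor for BMP9 and partner of endoglin, was not called. It had 11008, 12856 and 11172 normalized counts in mutants 1 to 3, against 12291, 10948 and 13432 in controls 1 to 3 (log2 difference -0.06, SE 0.20, adjusted p = 0.890 by limma). The mutants were at 95.5% of the control level, and the ranges of the groups overlapped, with a log2 difference of -0.14 without mutant 2. The log2 difference of Eng was -1.23, and the gap between the 2 genes was not tested.

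Among the lymphatic markers Pdpn was lower and Prox1 and Lyve1 were not called. Pdpn encodes podoplanin, a surface glycoprotein of lymphatic endothelium that stromal and mesothelial cells can also make. It had 4909, 6002 and 5404 normalized counts in mutants 1 to 3, against 11550, 12288 and 13994 in controls 1 to 3. The mice of each group lay close together and mutant 2 did not stand apart. Pdpn fell to 43.1% of the control level (log2 difference -1.21, SE 0.20, adjusted p = 0.00172 by limma), with log2 differences of -1.29 to -1.14 and adjusted p of 0.00114 to 0.0208 without single libraries.

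Prox1, the transcription factor that specifies lymphatic endothelium, had 1529, 1862 and 2385 normalized counts in mutants 1 to 3, against 3225, 2323 and 1763 in controls 1 to 3 (log2 difference -0.32, SE 0.27, adjusted p = 0.554 by limma). The ranges overlapped, and mutant 2 was not the highest mutant. Lyve1, a hyaluronan receptor of lymphatic endothelium and some macrophages, averaged 4018 ± 814 in mutants and 5694 ± 825 in controls (SD, n = 3 each; log2 difference -0.51, SE 0.23, adjusted p = 0.194). Without mutant 2, Prox1 was at -0.31 (adjusted p = 0.583) and Lyve1 at -0.67 (adjusted p = 0.0770), and edgeR then called Lyve1 lower (adjusted p = 0.0327). That edgeR fit was added after seeing the data. Over the other alternatives the adjusted p of Lyve1 was 0.0770 to 0.428. Of 9 other lymphatic genes 0 were called lower and 1, Fgl2, higher by limma, with a median of -0.06. edgeR gave the same counts, DESeq2 called 2 lower, and 2 were lower at an unadjusted p under 0.05. Without mutant 2 limma called 2 lower (Tbx1 and Foxc2) and 2 higher (Fgl2 and Ccl21a), with a median of -0.42. With all mice Ccl21a was at 196% of the control level and not called (log2 difference 1.19, adjusted p = 0.0684 by limma), and its groups overlapped. Over all alternatives its adjusted p was 0.00444 to 0.347. The higher call of Fgl2, which is not restricted to lymphatic cells, was lost without controls 2 and 3 and mutants 1 and 3.

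Markers of other cell types that can express Pdpn or Lyve1 were read in the same libraries. Of 12 macrophage genes 0 were called in either direction by limma, edgeR or DESeq2 (1 higher and 0 lower at an unadjusted p under 0.05), with a summed level of 92680 to 97006 in mutants and 77131 to 113969 in controls. Of 7 mesothelial genes Krt7 rose and Wt1 fell, Wt1 not called without control 3, with a summed level of 61183 to 110691 in mutants and of 47502 to 62523 in controls. Krt7, a keratin that epithelium also makes, carried the higher sum. Without Krt7, a choice made after its values were seen, the sum was 29820 to 45467 in mutants and 40454 to 54856 in controls. Wt1 (11368 ± 3561 in mutants and 30343 ± 7441 in controls) was the largest part of that sum in every control. By gene, 6 of the 7 had a positive log2 difference, with a median of 0.56 over the 7. Of 10 stromal genes 5 (Hand2, Pdgfra, Hoxa11, Thy1 and Vim) fell, with a median of -0.92 and a summed level of 1169437 to 2376843 in mutants and of 2193208 to 3027510 in controls. Over all 10 stromal genes, 4, 2 and 1 were called lower without controls 1 to 3 and 3, 6 and 2 without mutants 1 to 3. Of all genes tested, 4.08% were called lower with all mice. That share was 2.55%, 1.26% and 0.879% without controls 1 to 3 and 2.29%, 7.84% and 2.13% without mutants 1 to 3. The part of macrophages, mesothelium and stroma in the results for Pdpn and Lyve1 was not tested.

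Per kilobase of exon, the levels of the 36 genes spanned a wide range in both groups. Exon lengths are from GENCODE M21 and need not be those of the authors' annotation. Cdh5 was the highest in controls, with 3334 ± 2039 in mutants and 11180 ± 4315 normalized counts per kilobase in controls (SD, n = 3 each), followed by Plvap with 3657 ± 2536 in mutants and 7841 ± 2100 in controls and Pdpn with 2993 ± 301 in mutants and 6940 ± 689.9 in controls. These neighbours overlapped within their spread. In controls the lowest were Esm1 with 29.9 ± 19.9 in mutants and 122 ± 39.9 in controls, Prox1 with 229 ± 51.4 in mutants and 290.5 ± 88.0 in controls, and Angpt1 with 112 ± 43.3 in mutants and 343 ± 142 in controls. In mutants Plvap was the highest, and Apln at 94.2 lay below Angpt1 and Pgf below Prox1. Of the ligands, Pgf had 192 ± 63.5 per kilobase in mutants and 2072 ± 1002 in controls, and Vegfa had 1816 ± 804 in mutants and 3046 ± 641 in controls.

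Blood endothelial genes outside the set mostly had negative differences, 21 of 25. The 4 with positive differences were Sox17, Gpr4 (0.73, adjusted p = 0.0999 by limma, every mutant above every control), Cd34 (0.12) and Gata2 (0.04). Of these 25 genes 7 were called lower and 1, Sox17, higher, with a median of -0.79. Rgcc, Ecscr and Cd93 had the smallest adjusted p among the lower ones. Rgcc, a cell-cycle regulator found in endothelium, averaged 532 ± 195 in mutants and 1859 ± 781 in controls (log2 difference -1.75, SE 0.37, adjusted p = 0.00770 by limma). The endothelial receptor genes Ecscr and Cd93 had log2 differences of -1.15 (adjusted p = 0.0126) and -1.19 (adjusted p = 0.0212). Over all 25 genes, 2, 0 and 0 were called lower without controls 1 to 3 and 1, 15 and 2 without mutants 1 to 3. Beside the counts of each list stand the shares over all genes tested. With all mice these were 4.08% lower and 5.34% higher. The lower shares were 2.55%, 1.26% and 0.879% without controls 1 to 3 and 2.29%, 7.84% and 2.13% without mutants 1 to 3. The higher shares were 4.11%, 3.06% and 2.83% without controls 1 to 3 and 3.9%, 7.24% and 3.8% without mutants 1 to 3.

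Among 16 genes of arteries, veins and Notch signalling in vessels, 5 (Unc5b, Notch4, Gja4, Nr2f2 and Nr2f1) fell and 3 (Efnb2, Jag1 and Notch1) rose, at a median of -0.45. Unc5b, a netrin receptor of tip cells and arteries, had 1008, 1525 and 1132 normalized counts in mutants 1 to 3, against 4922, 12137 and 17294 in controls 1 to 3 (log2 difference -3.07, SE 0.37, adjusted p = 1.14e-04 by limma). Efnb2, the ephrin of arterial endothelium that other cells make too, had 39544, 41615 and 65224 in mutants 1 to 3, against 9209, 11300 and 14599 in controls 1 to 3 (log2 difference 2.05, SE 0.25, adjusted p = 1.43e-04). The endothelial Notch receptor gene Notch4 and the arterial connexin gene Gja4 had log2 differences of -1.63 (adjusted p = 0.0112) and -1.15 (adjusted p = 0.0199). Over all 16 genes, 2, 2 and 1 were called lower without controls 1 to 3 and 2, 7 and 2 without mutants 1 to 3. Those called higher numbered 2, 1 and 1 without controls 1 to 3 and 1, 3 and 2 without mutants 1 to 3.

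Of 30 other angiogenic factors and regulators 29 were tested, of which 8 fell and 2 (Sema3f and Sema3a) rose, at a median of -0.40. Pdgfc, a platelet-derived growth factor, averaged 8753 ± 2972 in mutants and 29616 ± 10786 in controls (log2 difference -1.74, SE 0.31, adjusted p = 0.00276 by limma). Hgf, a growth factor made by stroma, averaged 2124 ± 563 in mutants and 5136 ± 471 in controls (log2 difference -1.30, SE 0.24, adjusted p = 0.00332), and the chemokine gene Cxcl12 13751 ± 5203 in mutants and 30313 ± 3715 in controls (log2 difference -1.20, SE 0.26, adjusted p = 0.00921). Sema3f, a semaphorin that binds neuropilin 2, averaged 11134 ± 2547 in mutants and 4840 ± 608 in controls (log2 difference 1.18, SE 0.23, adjusted p = 0.00505). Over the whole list, 6, 3 and 2 genes were called lower without controls 1 to 3 and 5, 10 and 6 without mutants 1 to 3. Those called higher numbered 1, 0 and 1 without controls 1 to 3 and 2, 2 and 1 without mutants 1 to 3.

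Genes of the cells around vessels were mixed. Of 13 pericyte and mural genes 3 (Tbx18, Rgs5 and Mcam) fell and 1, Anpep, rose, at a median of -0.83. Rgs5, a marker of pericytes, averaged 19087 ± 6248 in mutants and 42295 ± 5733 in controls (log2 difference -1.19, SE 0.25, adjusted p = 0.00735 by limma). Over all 13 genes, 3, 2 and 1 were called lower without controls 1 to 3 and 2, 9 and 2 without mutants 1 to 3. Anpep, an aminopeptidase of pericytes and of many epithelia, averaged 284983 ± 167821 in mutants and 20958 ± 4939 in controls (log2 difference 3.64, SE 0.34, adjusted p = 1.12e-05). Of 10 smooth muscle genes 1, Des, fell, a call lost without control 3, mutant 1 and mutant 3. Of these 10 genes 8 had a negative log2 difference, at a median of -0.35. Their summed level was 559678 to 740905 in mutants and 802882 to 895672 in controls. Of 8 platelet genes Itga2b rose, a call lost without control 3, and 0 fell by limma, edgeR or DESeq2 (0 at an unadjusted p under 0.05), with Gp1bb at 0 reads in the mutants and 8 in the controls together. Of 7 erythroid genes 0 were called by limma, edgeR or DESeq2 (0 at an unadjusted p under 0.05), and 2 were called higher without mutant 3.

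Epithelial genes moved the other way. Of 10 such genes 9 rose, at a median of 2.23, with Cldn7 and Ehf at log2 differences of 2.52 and 2.77 and adjusted p of 6.80e-06 and 6.80e-06 by limma. The 9 higher calls held without each library other than control 3, where 8 were left. The part of this shift in the endothelial result was not tested. Without mutant 2 the median was 2.42 for epithelial genes, -1.30 for stromal, -1.02 for other blood endothelial, -0.72 for artery, vein and Notch, -0.43 for other angiogenic, -1.14 for pericyte and -0.46 for smooth muscle genes. Under the other scalings tried, the median over the 36 genes was -0.95 to -1.00 and that over all genes -0.06 to -0.01.

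**Figure D4:**
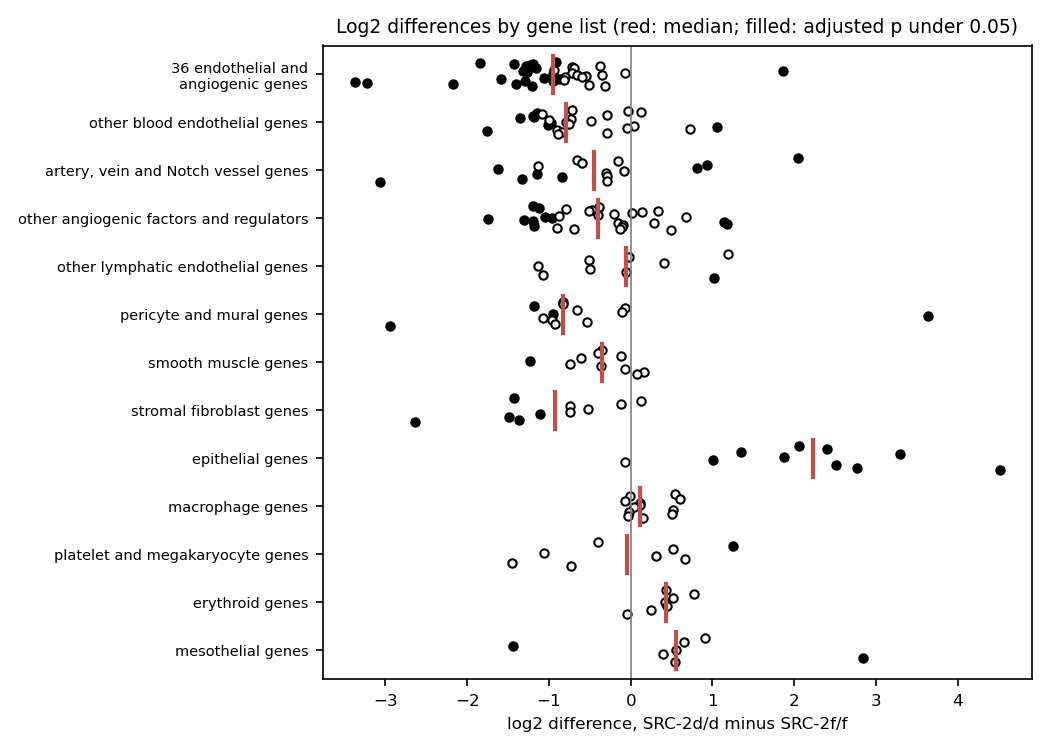
Log2 differences (SRC-2d/d minus SRC-2f/f) of the 36 genes and of the genes of 12 other lists, with filled points for genes with an adjusted p under 0.05 and red bars for medians. The median is -0.95 for the 36 genes, -0.92 for stromal genes, 0.11 for macrophage genes and 2.23 for epithelial genes.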

How the data were processed

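RNA of whole uterus from 3 SRC-2d/d and 3 SRC-2f/f mice had been sequenced from a stranded mRNA kit, per the labels' protocols. The submitters' processing notes name HISAT2, HTSeq and DESeq without versions. No source used here gives the build, annotation, strand setting or treatment of multiply mapping reads. The deposited table is titled FPKM, but its values are a signal made of whole reads divided by 1 size factor per library: in each library 100% of the values deposited were whole numbers of reads once multiplied by that factor, within 1e-06 of a read. Library totals set the precision, and 3 reads correspond to 2.48 to 3.41 normalized counts.

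The test was limma 3.58.1 (R 4.3.3, with a variance trend on expression level in eBayes) applied to log2(normalized count + 1) with genotype as the only term, for 36154 genes with a mean of at least 0.5, and calls are at an adjusted p under 0.05. Log2 differences are mutant minus control, on a scale that understates changes of low counts. Alternatives were other pseudocounts, filters, scalings and variance models, a replicate block, each library left out (the filter was then reapplied), and edgeR 4.0.16 and DESeq2 1.42.0 on the recovered reads. edgeR with single libraries left out was added after seeing the data, and the ranges given over all alternatives do not include it. The procedure was tested on simulated data. The genes named are the 36, Ncoa2, up to 4 called genes of each other list with the smallest adjusted p, and genes that complete a count of 5 or fewer. Members and lists were chosen with earlier results of these data known. Of the 8 erythroid genes Ahsp was not found under that symbol.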

Additional observations from a re-analysis of the deposited data

How the results depend on the processing

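With eBayes without trend, 1 of the 36 genes was called lower and 0 higher, all genes gave 315 lower and 683 higher calls, and Ncoa2 was at -0.91 with an adjusted p of 0.119. Under the other settings with all mice, 17 to 21 of the 36 genes were called lower and 1 higher. Without single libraries these numbers were 3 to 29 and 1, all genes gave 315 to 2813 lower and 1013 to 2598 higher calls, and Ncoa2 was at -0.95 to -0.85. edgeR without single libraries, added after seeing the data, called 12, 10 and 5 of the 36 lower without controls 1 to 3 and 10, 30 and 10 without mutants 1 to 3. Of all genes it called 486 to 3133 lower (670 without control 2, 787 without mutant 1 and 867 without mutant 3) and 1221 higher without control 3. The median over the 36 genes was -1.25 to -0.79 without single libraries by limma and -1.32 to -0.77 by edgeR. Acvrl1 changed sign without control 3, at 0.0062, and ran down to -0.14 without control 2, within its error. Whether equal replicate numbers pair the mice is not labelled. The deviations from the group means correlated at 0.38, 0.01 and 0.03 between same-numbered mice, and mutant 2 correlated best with control 3, at 0.34. Deviations from a mean of 3 mice depend on each other, so these values cannot decide whether same-numbered mice shared a batch or litter. With the replicate block, 20 of the 36 genes were called lower and 1 higher, with Tie1 lost. The cause of these changes was not tested, other than that fewer mice were fitted. Esm1, with 23 reads in one library, is limited by depth as well as by the number of mice.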
